A study of Mus musculus with 21 samples.

Results

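The 4 claudins Cldn3, Cldn4, Cldn6 and Cldn7, the tight junction protein occludin (Ocln) and the protease inhibitors Spint1 and Spint2 were followed through the chemical reprogramming of mouse fibroblasts. These 7 genes were taken by symbol from the expression tables of 21 libraries, out of 43436 gene identifiers found in every table. All 7 were among the 16650 genes that passed a filter of at least 1 FPKM in at least 2 libraries, which a gene can pass through any group. FPKM counts the sequenced fragments of a gene relative to the length of its transcripts and to all fragments mapped in that library.

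Claudins are membrane proteins that meet between neighbouring epithelial cells and form the strands of the tight junction, which seals the space between the cells. Each claudin gives the seal its own permeability, occludin lies in the same strands, and the scaffold protein Tjp1 (ZO-1) anchors them from inside the cell. Spint1 and Spint2 are membrane-bound Kunitz-type inhibitors that hold back cell-surface serine proteases such as matriptase (St14) and prostasin (Prss8) in epithelia. Loss of these genes is a mark of the epithelial to mesenchymal transition, and their gain belongs to the reverse transition through which fibroblasts pass on the way to pluripotency.

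The starting cells were mouse embryonic fibroblasts (MEF) of stage E13.5, with 2 libraries. Small molecules then drove the cells towards pluripotency, and day 16 of that course is covered by 2 libraries while days 12, 20, 26 and 28 have a single one. The pluripotent lines that resulted (CiPSC) are the C lines C1, C2 and C3, the G lines G1 and G3 and the N lines N4 and N6, 7 in all and sequenced once per line. All of these came from the strain C57BL/6J-Tg(GOFGFP)11Imeg/RbrcxICR. Embryonic stem cells (ESC) of embryonic day 3.5 gave 2 libraries, replicate 1 from that strain while C57BL/6 (B6)N was the strain of replicate 2. XEN (extraembryonic endoderm) cells descend from the primitive endoderm of the blastocyst, and both kinds were wild-type ICR. CeXEN cells (2 libraries) were derived from embryos of day 3.5 in stage 1 medium with VC6TFAE and 20 ng/ml bFGF. The eXEN libraries came from 1 established line, of which replicate 1 was kept in stage 1 medium with VC6TF and 20 ng/ml bFGF and replicate 2 in traditional XEN medium. Strain and cell type therefore cannot be told apart between the XEN cells and the other groups, nor medium and replicate within eXEN. Between CeXEN and eXEN, derivation and medium differ together and cannot be told apart either. Whether replicates come from separate cultures is not in the labels, so p-values measure only the spread between these libraries. All groups share 1 estimate of that spread. The 7 CiPSC lines add most to it, and the pairs of eXEN and ESC add differences of medium and strain. Within MEF, day 16 and CeXEN the spread may be technical.

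Cldn6 and Spint2 part the XEN sources, and Cldn4 is the claudin highest in the CiPSC lines. Spint1 is the only member whose highest group mean was in ESC rather than in the time course. For these reasons the promoters of Cldn4, Cldn6, Spint2 and Spint1 are shown. Each is the 250 bases before the RefSeq transcription start on the strand of the gene (build GRCm38.p6), and capitals mark CACCTG or its reverse complement CAGGTG, the letters known to be bound by the Snail and Zeb repressors of epithelial genes.
Cldn4, chr5:134946935-134947184, minus strand: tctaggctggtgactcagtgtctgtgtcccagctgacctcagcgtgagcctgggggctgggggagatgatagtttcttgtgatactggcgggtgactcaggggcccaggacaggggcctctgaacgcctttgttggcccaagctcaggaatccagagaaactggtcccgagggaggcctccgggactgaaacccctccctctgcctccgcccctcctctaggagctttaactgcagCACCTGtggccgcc
Cldn6, chr17:23679115-23679364, plus strand: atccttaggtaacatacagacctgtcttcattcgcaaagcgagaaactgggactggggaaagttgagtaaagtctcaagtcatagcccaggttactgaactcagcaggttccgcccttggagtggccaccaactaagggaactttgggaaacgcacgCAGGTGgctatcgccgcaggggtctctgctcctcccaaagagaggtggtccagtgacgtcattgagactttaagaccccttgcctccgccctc
Spint2, chr7:29281978-29282227, minus strand: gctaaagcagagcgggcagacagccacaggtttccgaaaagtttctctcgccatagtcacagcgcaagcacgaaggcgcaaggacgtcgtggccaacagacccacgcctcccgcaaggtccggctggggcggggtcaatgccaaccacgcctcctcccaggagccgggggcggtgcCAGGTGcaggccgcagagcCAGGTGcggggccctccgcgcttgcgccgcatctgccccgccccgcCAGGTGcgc
Spint1, chr2:119237110-119237359, plus strand: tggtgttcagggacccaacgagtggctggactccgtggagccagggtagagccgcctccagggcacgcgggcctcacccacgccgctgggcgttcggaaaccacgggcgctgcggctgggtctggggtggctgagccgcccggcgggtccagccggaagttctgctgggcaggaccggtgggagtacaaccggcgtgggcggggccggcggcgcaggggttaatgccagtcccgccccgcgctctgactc

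The Spint2 stretch holds the motif 3 times, at 74, 55 and 9 bases before the start, Cldn4 holds it 14 bases and Cldn6 93 bases before the start, and Spint1 does not hold it. In windows of 300 bases (250 before to 50 after the start), 7 of 9 windows of the members and 6 of the 7 genes held the motif on either strand, Spint1 being the exception. Of all 32851 RefSeq windows of that length, 20.2% held it, and of the 27025 genes with such windows 22.6% did. AACNNGTT, the letters bound by grainyhead-like factors, was in 0 of the 9 windows against 4.2% of all windows, and AGATAA or TTATCT, bound by GATA factors, was in 0 of 9 against 11.2%. These are matches of letters, not binding sites.

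In the deposited tables (mm10) Cldn4 spans chr5:134945126-134946934 and Cldn3 chr5:134986214-134987472, neighbours with 39279 bases between them. Cldn6 lies at chr17:23679365-23682446, Cldn7 at chr11:69964779-69967885, Ocln at chr13:100496507-100552718, Spint1 at chr2:119237362-119249527 and Spint2 at chr7:29256331-29281977. GENCODE lists all 7 as protein coding, and no other gene overlaps 6 of them. Cldn3 shares 40 bases with the antisense gene Wbscr25, and whether fragments were assigned by strand is not given in the sources used here.

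The group labels were set against markers. Gata4 was between 188 and 519 FPKM in every library of days 12 to 28, CeXEN and eXEN and at most 2.66 FPKM elsewhere, and Pou5f1 was between 555 and 1127 FPKM in ESC and CiPSC and at most 18.9 FPKM elsewhere. The summed FPKM of 7 pluripotency markers was 27.9 at day 12, 195 and 5.66 at day 16, 166 at day 20, 631 at day 26 and 342 at day 28. It was 4287 to 5381 in ESC and CiPSC and at most 51.3 in MEF, CeXEN and eXEN. Markers of other cells moved with the groups too. The summed FPKM of 9 fibroblast markers was 2840 and 10460 in MEF, 979 at day 12, 404 and 654 at day 16, 182 to 279 from day 20 to day 28, 89.99 to 226 in CeXEN and eXEN, and 3.65 to 78.7 in ESC and CiPSC. Of these 9 markers, only 1 reached 1 FPKM in CeXEN replicate 1 and in each eXEN library, and 6 did in CeXEN replicate 2. The summed FPKM of 6 trophoblast markers was 70.6 at day 12, 57.9 and 14.3 at day 16, and 38.3 to 50.4 from day 20 to day 28, against 6.81 and 1.33 in MEF and 2.50 to 16.1 in CeXEN and eXEN. The macrophage markers summed to 110 and 36.7 FPKM in MEF and 17.3 or less elsewhere. That of 5 skin epithelium markers was at most 9.45 in any library (day 12) and 0.904 or less in MEF, with Trp63 at most 0.299. In these bulk libraries, fewer cells that carry a transcript and less of it per cell cannot be told apart. The tables of day 12, day 16 replicate 1, day 20 and day 26 hold 446 rows of LOWDATA status each and the other 17 hold 0. Day 28, one of those others, had the highest Cldn4 and Cldn6 of all libraries.

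At day 16 all 7 genes were higher than in the fibroblasts (7 of 7 called, all higher, against 20.7% of all genes called, 13.3% higher and 7.41% lower). Calls needed an adjusted p below 0.05 together with a change of 1 or more in log2(FPKM + 1), a scale that understates changes of low genes, and changes are given with their SE from limma. The median change of the 7 was 3.95 against 0.22 over all genes tested. None of the 7 overlapped between the groups: the highest MEF value of each was below the lowest day 16 value. The share of all genes without overlap was not counted, so this is a description only.

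Cldn6, a claudin of embryonic epithelia, was listed at 0.0943 and 0 FPKM in MEF and at 118 and 31.5 FPKM at day 16, and rose by 5.89 ± 0.60 (adjusted p = 7.632e-06). Cldn4, which seals against ions in mature epithelia, was at 0.115 and 0 FPKM in MEF and 51.1 and 4.15 FPKM at day 16, and rose by 3.95 ± 0.72 (adjusted p = 0.001006). Both day 16 libraries stood above both fibroblast libraries, but replicate 1 was far above replicate 2. Cldn7, found along the lateral membrane of epithelial cells, went from 0.418 and 0 FPKM to 41.1 and 8.48 FPKM, a rise of 4.07 ± 0.73 (adjusted p = 0.0008757). Cldn3, a sealing claudin often found with Cldn4, went from 0.116 and 0.0640 FPKM to 17.6 and 4.38 FPKM, a rise of 3.20 ± 0.51 (adjusted p = 0.0003493). The 4 claudins thus shared a low fibroblast level and the same high library at day 16.

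Ocln was at 0.0708 and 0.0387 FPKM in MEF and at 20.3 and 10.2 FPKM at day 16, a rise of 3.87 ± 0.33 (adjusted p = 1.196e-06). Spint2 was at 3.56 and 3.59 FPKM in MEF and at 365 and 108 FPKM at day 16, a rise of 5.44 ± 0.65 (adjusted p = 2.786e-05). It was the only one of the 7 genes above 1 FPKM in either fibroblast library, where the others were at 0.539 FPKM or less. Spint1 was at 0.539 and 0.0968 FPKM in MEF and at 12.9 and 12.1 FPKM at day 16, a rise of 3.37 ± 0.44 (adjusted p = 6.564e-05). Its 2 day 16 libraries were nearly level, and the bounds the authors' quantifier gives them (11.1 to 14.7 and 10.6 to 13.49 FPKM) overlap. For Cldn4 those bounds were 48.1 to 54.0 and 3.33 to 4.97 FPKM, far apart.

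Day 16 replicate 1, the library far higher in 6 of the 7 genes, also held more of the pluripotency markers (195 against 5.66 summed FPKM over 7 genes) and of the trophoblast markers, and less of the fibroblast markers, and it is 1 of the 4 libraries with LOWDATA rows. The part of these differences in the levels was not tested. Against MEF, all 7 genes were also called without replicate 1, which leaves only libraries with no LOWDATA rows, and without replicate 2, with the rise of Cldn4 between 2.29 and 5.62 and that of Cldn6 between 4.96 and 6.83 over the single libraries left out. In a fit of the 4 libraries of MEF and day 16 alone, with no spread borrowed from other groups, 0 of 7 genes and 0 of all genes were called, with adjusted p from 0.0623 to 0.204 for the members.

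**Figure D1:**
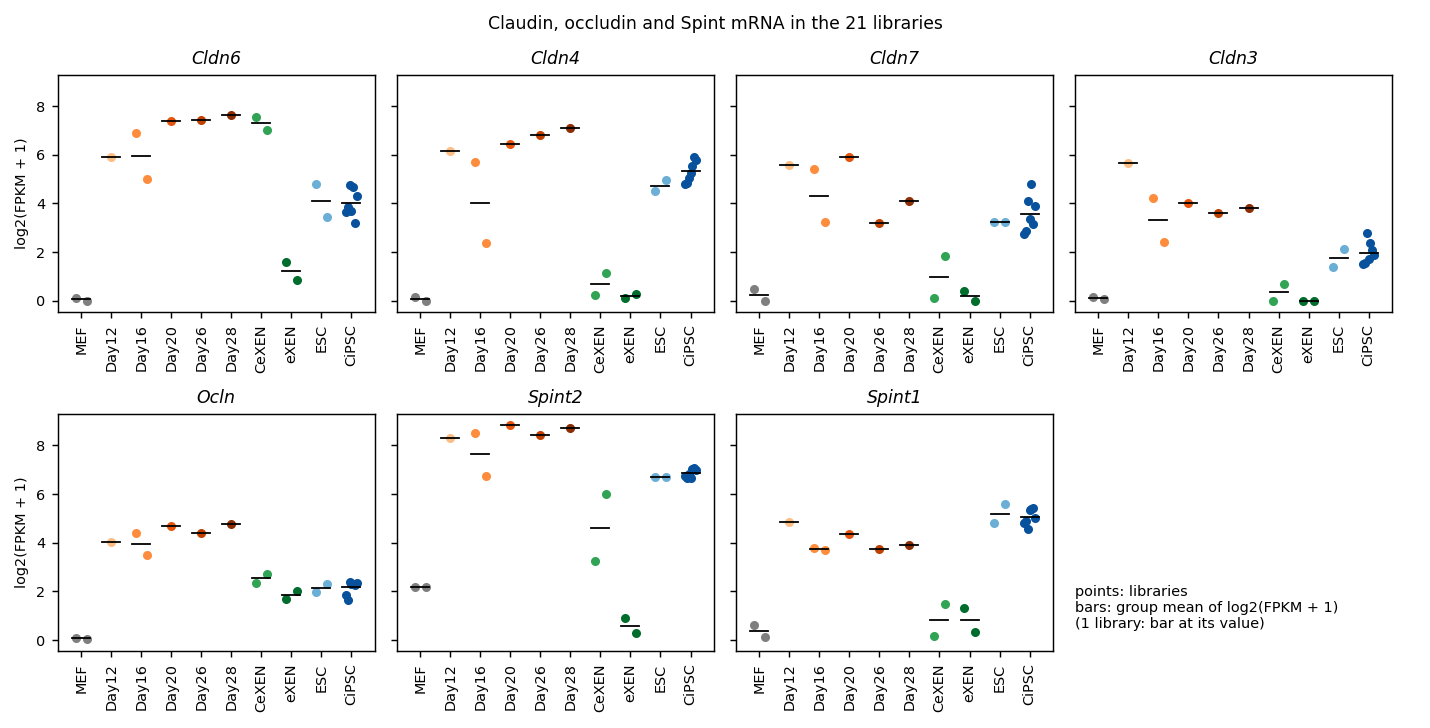
log2(FPKM + 1) of the 7 genes (vertical axis) in the 10 groups (horizontal axis), 1 panel per gene, with a point per library and a bar at the group mean. All 7 genes are lower in both MEF and both eXEN libraries than in any library of days 12 to 28. The share of all genes with that order was not counted, so this is a description only. Among the members CeXEN is highest for Cldn6.

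Between day 12 and day 28 the genes took different courses. Cldn6 was at 59.0 FPKM at day 12, 118 and 31.5 at day 16, 168 at day 20, 171 at day 26 and 198 at day 28. Cldn4 was at 70.5, then 51.1 and 4.15, then 86.5, 113 and 137 FPKM at the same days. Both had their highest level of all groups at day 28, where Cldn4 was 0.692 of Cldn6, against 1.19 of it at day 12.

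Cldn3 was highest at day 12, at 49.6 FPKM, and between 4.38 and 17.6 FPKM in each library after it. Cldn7 was at 46.2 FPKM at day 12 and 59.2 at day 20 but at 8.17 at day 26 and 16.4 at day 28. So the 2 sealing claudins Cldn3 and Cldn4, neighbours on chromosome 5, stood apart late in the course, Cldn4 at 137 and Cldn3 at 13.1 FPKM at day 28.

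Ocln lay between 10.2 and 26.5 FPKM throughout, lowest in day 16 replicate 2 and highest at day 28. Spint1 was at 27.5 FPKM at day 12, 19.3 at day 20, 12.3 at day 26 and 14.0 at day 28. Spint2 was at 319 FPKM at day 12, 462 at day 20, 342 at day 26 and 422 at day 28, the most abundant of the 7 in every library of the time course on this scale per length.

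No linear trend over these days was called with limma, in 0 of 7 members and 0 of all 16650 genes (0% called). The largest trend relative to its error was that of Cldn6, 1.98 ± 0.76 over 16 days (unadjusted p = 0.0447, adjusted p = 0.2408), and at an unadjusted p under 0.05 there was 1 member beside 3349 of all genes. Cldn4 had 2.28 ± 1.64, Cldn7 -1.46 ± 1.17 and Cldn3 -0.96 ± 1.07. Without the day 12 library the sign turned for Cldn3 (0.50) and Spint1 (0.03). The fit rests on 6 libraries, and 4 of 5 days have 1 library each.

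**Figure D2:**
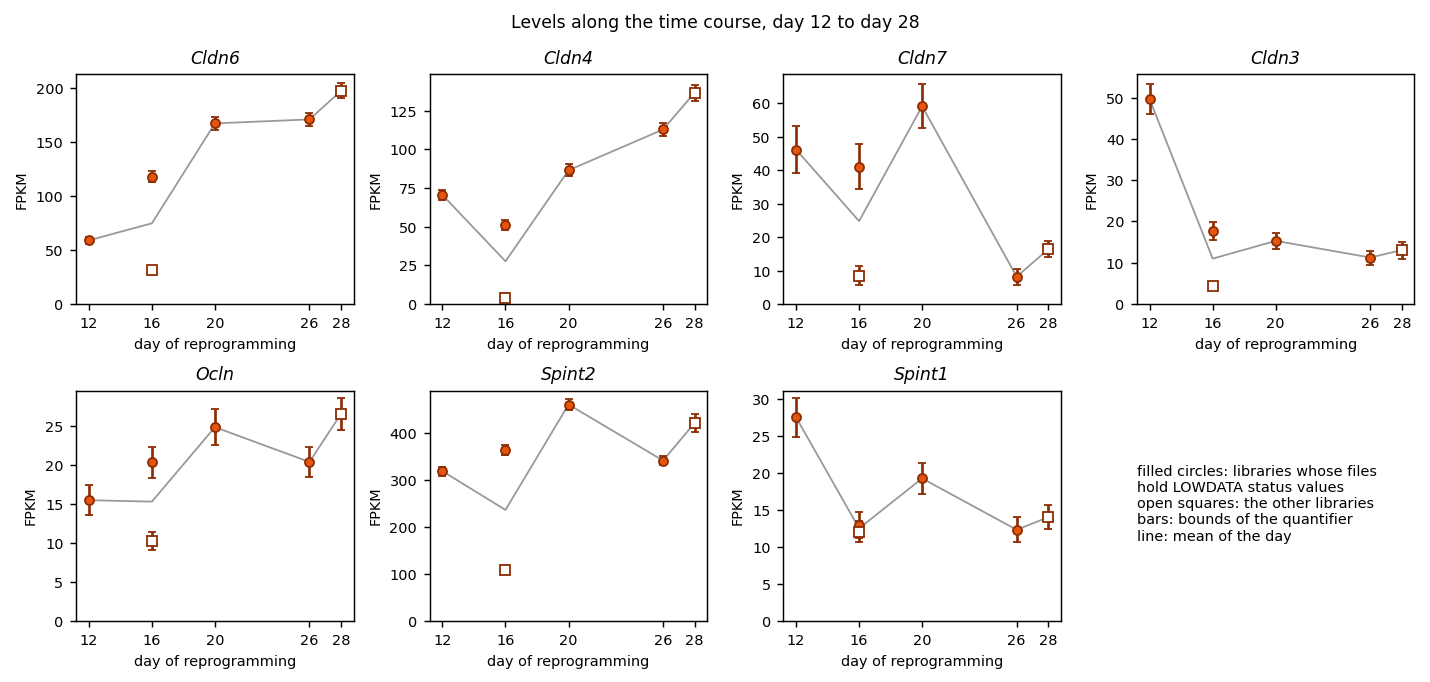
FPKM (vertical axis) against day of reprogramming (horizontal axis) for each gene; bars are the bounds of the quantifier, the line joins the mean of each day, and filled circles are the 4 libraries with LOWDATA rows. Cldn4 and Cldn6 end highest, at 137 and 198 FPKM, Cldn3 is highest at day 12, and day 16 replicate 2 (open square) lies below replicate 1 with no overlap of bounds for every gene except Spint1.

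The question of how near the intermediate cells stand to XEN cells was met with 2 references, the established line and the embryo-derived cells of the chemical medium. The comparisons share the day 16, MEF or eXEN libraries, so their values stand side by side and are not independent.

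In eXEN all 7 genes were at 3.02 FPKM or less, and the eXEN and MEF ranges overlapped for Cldn4, Cldn7 and Spint1. Cldn6 was at 1.98 and 0.831 FPKM, Cldn4 at 0.0749 and 0.214, Cldn7 at 0.315 and 0, Spint1 at 1.52 and 0.254 and Spint2 at 0.865 and 0.209, while Cldn3 was listed at 0 in both libraries. The bounds of the quantifier did not pass 2.59 FPKM for any of these values. Ocln, at 2.26 and 3.02 FPKM, and Cldn6 lay above both fibroblast libraries, and Spint2 lay below both. Ocln was the 1 member called against MEF, by 1.78 ± 0.33 (adjusted p = 0.0007382), where 22.3% of all genes were called and 8.85% called higher. Spint2 had -1.61 ± 0.65 (adjusted p = 0.0785) and Cldn6 1.16 ± 0.60 (adjusted p = 0.1808). With a pseudocount of 0.1 both were called, Spint2 lower (-2.75, adjusted p = 0.00892) and Cldn6 higher (3.32, adjusted p = 0.00155), and with median-of-ratios scaling Spint2 was called (-1.75, adjusted p = 0.0399). The median of the 7 was 0.11 against 0.00079 over all genes.

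Day 16 was above eXEN in all 7 genes (17.1% of all genes called, 14% called higher), with a median of 3.84 against 0.23 over all genes. The libraries of the 2 groups did not overlap for any of the 7, and the share of all genes without overlap was not counted here either. Spint2 differed most, by 7.05 ± 0.65 (adjusted p = 4.152e-06), followed by Cldn6 with 4.74 ± 0.60 and Cldn7 with 4.12 ± 0.73. Cldn4 differed by 3.84 ± 0.72, Spint1 by 2.92 ± 0.44 and Ocln by 2.10 ± 0.33. Cldn3, at 17.6 and 4.38 FPKM at day 16, is given no fold because eXEN is listed at 0 (adjusted p = 0.0003408). All 7 calls were kept when any 1 library of day 16 or eXEN was left out. In a fit of these 2 groups alone only Spint2 was called.

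CeXEN cells differed from the established line in Cldn6 and Spint2. Cldn6 was at 185 and 130 FPKM in CeXEN, which overlapped the day 20 and day 26 values and lay above both day 16 libraries. Against eXEN it was higher by 6.06 ± 0.60 (adjusted p = 3.673e-05). Spint2 was at 8.41 and 63.6 FPKM, above eXEN by 4.04 ± 0.65 (adjusted p = 0.001474). These were the 2 members called of 7 (6.47% of all genes called, 4.01% higher and 2.46% lower), and they were called without each single library too, though neither in a fit of the 2 groups alone (adjusted p = 0.1304 for Cldn6 and 0.3477 for Spint2). The median of the members was 0.68 against 0.06 over all genes. The remaining 5 were low in both XEN kinds: in CeXEN, Cldn4 was at 0.187 and 1.20 FPKM, Cldn7 at 0.0698 and 2.57, Cldn3 at 0 and 0.610 and Spint1 at 0.117 and 1.83, with Ocln at 4.01 and 5.66. Replicate 2 was the higher in all of these and in Spint2. It also held more of the fibroblast markers (226 against 159 summed FPKM, with 6 against 1 of 9 at 1 FPKM or more) and trophoblast markers (16.1 against 2.50). The part of this in the levels was not tested.

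Day 16 was above CeXEN in 6 of the 7 genes (11.3% of all genes called, 9.11% called higher), with a median of 2.98 against 0.13. Cldn7 differed by 3.35 ± 0.73 (adjusted p = 0.007095), Cldn4 by 3.34 ± 0.72 (adjusted p = 0.006821), Spint2 by 3.01 ± 0.65 and Cldn3 by 2.98 ± 0.51. Spint1 differed by 2.92 ± 0.44 (adjusted p = 0.0005337) and Ocln by 1.42 ± 0.33 (adjusted p = 0.009543). Cldn6 went the other way, -1.33 ± 0.60 (adjusted p = 0.1697), and was not called. Without day 16 replicate 1, Cldn6 was called lower at day 16 (-2.27, adjusted p = 0.0349), and Cldn7, Ocln and Spint2 were no longer called (adjusted p = 0.0855, 0.0946 and 0.0756). Without CeXEN replicate 1, Cldn4, Cldn7 and Ocln were no longer called (adjusted p = 0.0522, 0.0724 and 0.0645), which left 3 of 7, and a fit of these 2 groups alone called 0 of 7.

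**Figure D3:**
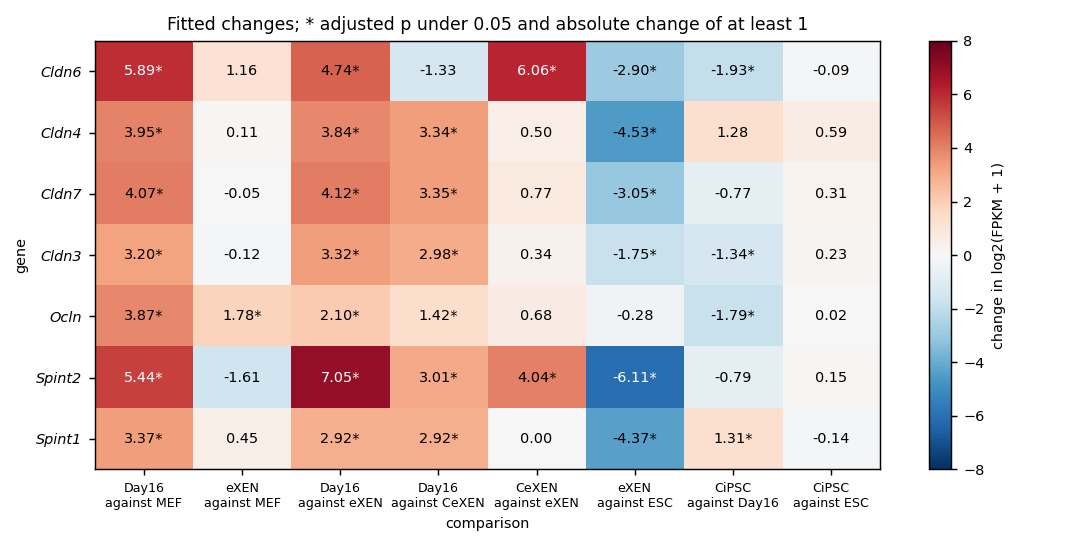
Fitted change in log2(FPKM + 1) of each gene (rows) in the 8 comparisons (columns), coloured from blue (lower) to red (higher), with a star where called. Cldn6 (6.06) and Spint2 (4.04) are the genes with a star in CeXEN against eXEN, and the column of CiPSC against ESC holds no star.

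In the pluripotent cells 6 of the 7 genes were above their eXEN levels again, and Ocln was not. In ESC, Cldn6 was at 26.5 and 9.99 FPKM, Cldn4 at 21.7 and 29.8, Cldn7 at 8.47 and 8.48, Cldn3 at 1.63 and 3.31, Ocln at 2.89 and 3.99, Spint1 at 26.9 and 47.4 and Spint2 at 103 in both. Against ESC, eXEN was lower in 6 of 7 genes (28.1% of all genes called, 18.4% lower and 9.78% higher), with a median of -3.05 against -0.26 over all genes. Spint2 was lower by a difference of -6.11 ± 0.65 (adjusted p = 7.23e-06), Cldn4 by -4.53 ± 0.72, Spint1 by -4.37 ± 0.44, Cldn7 by -3.05 ± 0.73 and Cldn6 by -2.90 ± 0.60. A fit of these 2 groups alone no longer called Cldn6 (adjusted p = 0.0502). Cldn3, listed at 0 in eXEN, was called (adjusted p = 0.01531) but not without eXEN replicate 1, eXEN replicate 2 or ESC replicate 2 (adjusted p = 0.0539, 0.0656 and 0.123). Ocln was not called, with a difference of -0.28 ± 0.33 (adjusted p = 0.5311).

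CiPSC lines and the day 16 cells differed in 4 of 7 genes (29.9% of all genes called), 1 higher and 3 lower in CiPSC, against 13% called higher and 17% called lower among all genes. The median was -0.79 against -0.02, and the genes did not go one way. Over the 7 lines Spint1 lay between 22.6 and 41.4 FPKM (median 31.6), above both day 16 libraries, and was higher by 1.31 ± 0.35 (adjusted p = 0.007355). Ocln lay between 2.18 and 4.29 FPKM (median 3.90), below both day 16 libraries, and fell by 1.79 ± 0.26 on the log2 scale (adjusted p = 7.182e-05). Cldn6 lay between 8.28 and 25.9 FPKM (median 13.49), below both day 16 libraries, and fell by 1.93 ± 0.48 (adjusted p = 0.004538). Cldn3 lay between 1.84 and 5.80 FPKM (median 2.63), which overlapped day 16 replicate 2, and fell by 1.34 ± 0.41 (adjusted p = 0.01498).

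Cldn4 was at 27.1 to 58.7 FPKM (median 37.2) in the lines, with 1.28 ± 0.58 (adjusted p = 0.08227). All lines were above day 16 replicate 2 (4.15 FPKM) and lay on both sides of replicate 1 (51.1 FPKM). Cldn7 (5.66 to 26.6 FPKM, median 9.14) had -0.77 ± 0.59 and Spint2 (101 to 132 FPKM, median 112) -0.79 ± 0.52, neither called. The choice of day 16 library decided much here. Without replicate 1, Cldn3, Cldn6 and Spint1 were no longer called (adjusted p = 0.469, 0.195 and 0.0534) and Cldn4 was called higher in CiPSC (2.95, adjusted p = 0.000162), while Cldn7 (0.31) and Spint2 (0.09) changed sign. Without replicate 2, Cldn4 had -0.38, Spint1 was no longer called (adjusted p = 0.0582) and Cldn7 was called lower (-1.84, adjusted p = 0.0495). Ocln was called in each of these fits. With a pseudocount of 0.1, Cldn3 and Spint1 were not called (adjusted p = 0.0602 and 0.109).

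Between CiPSC and ESC, limma called no difference in any of the 7 genes (0 of 7 called and 0 of 7 at an unadjusted p under 0.05; of all genes 0.0601% called, 0.036% higher and 0.024% lower, and 1412 at an unadjusted p under 0.05). The smallest adjusted p of a member was 0.8478, for Cldn4, with 0.59 ± 0.58, and the median was 0.15 against 0.01. Both ESC values lay within the range of the 7 lines for Cldn7, Ocln and Spint2. For Cldn3, ESC replicate 1 (1.63 FPKM) was below all lines, for Cldn4 replicate 1 (21.7 FPKM) was below all lines, for Cldn6 replicate 1 (26.5 FPKM) was just above all lines, and for Spint1 replicate 2 (47.4 FPKM) was above all lines.

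The lines differed among themselves by gene. C1 and C2 were the 2 lowest in Cldn3, Cldn4, Cldn7 and Ocln. N4 had the highest Cldn4 (58.7 FPKM) and the lowest Cldn6 (8.28 FPKM), and C3 the highest Cldn3, Cldn6 and Ocln and the lowest Spint1. Of these ranks, only the lowest Cldn6 of N4 had quantifier bounds (7.16 to 9.40 FPKM) apart from those of every other line. For Ocln the bounds of C3 (0.401 to 8.19 FPKM) held the values of all lines. The 5 lines other than C1 and C2 had summed fibroblast markers of 41.7 to 78.7 FPKM against 4.86 and 5.20 in C1 and C2, beside ESC at 3.67 and 3.65. The part of this in the claudin levels was not tested.

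Since FPKM is per length, the claudins can be set beside each other. Of 25 claudin genes in the tables, 8 reached a mean of 5 FPKM in some group. The 4 that are no members were Cldn2, Cldn11, Cldn12 and a row listed as Cldn25, whose identifier GENCODE names Cldnd1, a claudin domain gene. In MEF the row listed as Cldn25 (51.9 ± 19.8 FPKM, SD, n = 2) and Cldn12 (17.3 ± 9.85) were nearly all of the claudin FPKM, and Cldn3, Cldn4, Cldn6 and Cldn7 together gave 0.806% and 0.122% of it. These 4 gave 67.7% at day 12, 77.2% and 42.8% at day 16 and 86.7% at day 28. With the row listed as Cldn25 left out of the sum, they gave 2.83% and 0.437% in MEF, 78.3% at day 12, 89.7% and 68.7% at day 16 and 93.7% at day 28.

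In CeXEN, Cldn6 alone gave 73.0 ± 9.62% of the claudin FPKM (SD, n = 2), and in eXEN 3.01 ± 1.30%. Without the row listed as Cldn25 these shares were 90.7 ± 3.14% and 8.04 ± 3.30%, with Cldn12 then at 83.4% and 90.2% in eXEN. At day 28 it gave 47.1%, with Cldn4 at 32.6%. In CiPSC the order was turned, with Cldn4 at 38.6 ± 8.04% and Cldn6 at 15.6 ± 4.78% (n = 7). Cldn4 was 1.25 to 7.08 of Cldn6 in the 7 lines and 0.820 and 2.98 of it in ESC, against 0.432 and 0.132 at day 16 and 0.00101 and 0.00922 in CeXEN. Cldn2, which forms a cation pore and so has the opposite effect to a sealing claudin, was at 29.0 FPKM at day 12, at 5.27 and 0.205 FPKM at day 16, at 0.834 FPKM or less in each later day and listed at 0 in CeXEN, eXEN and CiPSC. Cldn12 stayed between 7.14 and 24.3 FPKM in all libraries.

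**Figure D4:**
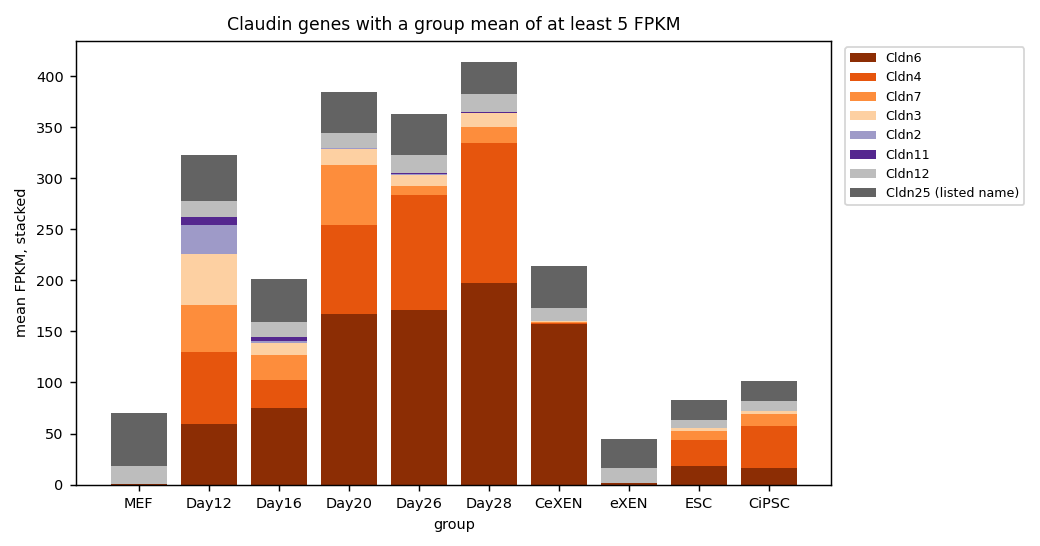
Mean FPKM of the 8 claudin genes that reach a group mean of at least 5 FPKM (stacked bars, vertical axis) in each group (horizontal axis). The 4 member claudins make up 86.7% of the claudin FPKM at day 28, Cldn6 is nearly the only member in CeXEN, and the row listed as Cldn25 and Cldn12 are most of the bars of MEF and eXEN.

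The order of the group means differed by gene. Cldn4 and Ocln ran from day 28 down to MEF, Cldn6 likewise with CeXEN between day 20 and day 16 at 158 ± 38.9 FPKM (SD, n = 2), Cldn3 from day 12 down to eXEN, and Spint1 from ESC at 37.2 ± 14.5 FPKM down to MEF. Cldn7 ran from day 20 down to eXEN and Spint2 from day 20 down to eXEN at 0.537 ± 0.463 FPKM. The ranges of ESC and CiPSC overlapped for all 7 genes, and so did those of CeXEN and its lower neighbour for Cldn3, Cldn4, Cldn7, Ocln and Spint1. MEF and eXEN overlapped for Cldn4, Cldn7 and Spint1. For Spint2 the MEF libraries (3.56 and 3.59 FPKM) lay above both eXEN libraries (0.865 and 0.209 FPKM).

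Of the 2 inhibitors, Spint2 was the more abundant in every library except those of eXEN, where Spint1 was at 1.52 and 0.254 FPKM. Spint1 was 0.0862 of Spint2 at day 12, 0.0353 and 0.112 at day 16, 0.0331 at day 28 and 0.0139 and 0.0287 in CeXEN, but 0.260 and 0.461 in ESC and 0.202 to 0.389 in the CiPSC lines. The ratio was thus higher in every pluripotent library than in any library of the time course.

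The target protease St14 was at 0.179 ± 0.0346 FPKM in MEF, 25.3 ± 0.691 at day 16, 2.89 ± 2.25 in CeXEN, 0.205 ± 0.198 in eXEN, 23.1 ± 4.89 in ESC (SD, n = 2 each) and 23.9 ± 8.01 in CiPSC (n = 7). It rose by 4.48 ± 0.40 from MEF to day 16 (adjusted p = 2.284e-06) and was low in both XEN groups, as Spint1 was, while Spint2 was at 36.0 ± 39.0 FPKM in CeXEN (SD, n = 2). Prss8 was listed at 0 in MEF and was at 3.64 ± 3.23 FPKM at day 16. Hgf, the growth factor whose activation the Spint proteins limit, was at 2.99 ± 3.33 FPKM in MEF and at 0.0919 ± 0.0132 at day 16 and was not among the genes tested, and its receptor Met was lower at day 16 than in MEF by -1.46 ± 0.48 (adjusted p = 0.03325).

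Of the 24 genes of the Spint target protease list, which also holds receptors, channels and other inhibitors, 12 could be tested. In day 16 against MEF, 4 were higher and 3 lower (33.3% and 25.0%, beside 13.3% and 7.41% of all genes), with a median of 0.42 against 0.22 over all genes. The serine protease Tmprss2 (6.16) and St14 led those higher, and the thrombin receptor F2r (-2.45) led those lower. Without day 16 replicate 1 the counts were 2 and 1, and without MEF replicate 1 there was 1 lower. In day 16 against eXEN, 7 were higher and 0 lower (58.3% higher, beside 14% of all genes; median 1.71 against 0.23), led by Tmprss2 (5.75), St14 (4.46), urokinase Plau (3.05) and the protease-activated receptor F2rl1 (2.85). That count was 4 without day 16 replicate 1 or eXEN replicate 2.

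In day 16 against CeXEN, 3 of the 12 were higher (25.0%, beside 9.11% of all genes; St14 2.89, Plau 2.86, Tmprss2 2.20) and 5 without day 16 replicate 2. In CeXEN against eXEN, 3 were higher (25.0%, beside 4.01% of all genes; Tmprss2 3.55, F2rl1 2.12, St14 1.57), and 1 without CeXEN replicate 2 or eXEN replicate 2. In eXEN against MEF, 0 were higher and 4 lower (33.3%, beside 1474 genes higher and 2246 lower of all 16650). In eXEN against ESC, 1 was higher and 5 lower (8.33% and 41.7%, beside 9.78% and 18.4% of all genes), led by St14 (-4.32) and F2rl1 (-4.20); without any 1 of the 4 libraries 3 were lower, and without eXEN replicate 1 or ESC replicate 1 there were 0 higher. In CiPSC against day 16, 1 was higher and 4 lower (8.33% and 33.3%, beside 13% and 17% of all genes), led by Tmprss2 (-5.76), and the higher count was 2 without day 16 replicate 1 and 0 without replicate 2.

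All 24 genes of the tight junction list, the partners of the claudins, were tested. In day 16 against MEF, 14 were higher and 2 lower (58.3% and 8.33%, beside 13.3% and 7.41% of all genes; 1 lower without day 16 replicate 1), with a median of 1.72 against 0.22 over all genes. The angulin Lsr of the tricellular junction (5.88) and the polarity genes Crb3 (4.51), Pard6b (3.98) and Prkcz (3.81) led those higher, and Mpdz (-2.35) and Jam3 (-2.23) were the lower ones. The scaffold Tjp1 was already at 18.7 ± 1.99 FPKM in MEF and at 20.6 ± 0.255 at day 16 (0.14 ± 0.18, adjusted p = 0.6382), in contrast to the strand proteins it anchors. Day 16 against eXEN had 9 higher and 0 lower (37.5% higher, beside 14% of all genes; median 0.87 against 0.23), among them Crb3 (4.50) and the occludin relatives Marveld3 (3.01) and Marveld2 (2.97). Without eXEN replicate 2 there were 5, and quantile normalization gave 5 higher and 1 lower. Lsr was at 53.2 ± 5.53 FPKM in eXEN and 82.7 ± 7.83 in CeXEN. This partner was thus abundant in XEN cells in which Cldn3, Cldn4 and Cldn7 were at 2.57 FPKM or less.

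Against CeXEN, day 16 had 6 of the 24 higher (25.0%, beside 9.11% of all genes; Crb3 4.05, Marveld3 3.05), and 3 higher with 1 lower without CeXEN replicate 1. CeXEN against eXEN had 3 higher and 1 lower (12.5% and 4.17%, beside 4.01% and 2.46% of all genes), led by Marveld2 (2.16), with the higher count between 1 and 5 and the lower between 0 and 1 over the single libraries left out (5 without CeXEN replicate 1; 1 without CeXEN replicate 2 or eXEN replicate 2). Against MEF, eXEN had 6 higher and 3 lower (1 without MEF replicate 1 or eXEN replicate 2). The 25.0% higher stand beside 8.85% of all genes, and the 12.5% lower were near the share of all genes (2246 of 16650). Against ESC, eXEN had 3 higher and 7 lower (12.5% and 29.2%, beside 9.78% and 18.4% of all genes), led by the adhesion molecule Jam2 (-6.07) and the angulin Ildr1 (-3.49). CiPSC against day 16 had 3 higher, among them Jam2 (4.30) and Ildr1 (2.55), and 9 lower, among them Marveld3 (-2.50) and Lsr (-2.32); without day 16 replicate 1 there were 5 lower. The 12.5% higher were near the 13% of all genes, and the 37.5% lower stand beside 17%.

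Of 16 epithelial transcription and splicing regulators, 15 were tested, and 12 were higher and 0 lower in day 16 against MEF (80.0% higher, beside 13.3% of all genes; median 2.41 against 0.22 over all genes). Elf3 (5.78) led, followed by the splicing factor Esrp1 (3.72) and Ovol2 (3.68), a repressor of mesenchymal genes. Grhl2, an activator of claudin and Spint genes in epithelia, was at 0.00913 ± 0.0129 FPKM in MEF and 4.47 ± 4.44 at day 16 and rose by 2.15 ± 0.49 (adjusted p = 0.004569). Elf5 and Cdx2, also counted among the trophoblast markers above, were called higher at day 16 than in MEF, by 2.41 and 1.90. They were called higher against eXEN too (2.32 and 1.82) and against CeXEN (2.01 and 1.56). Ovol2, Esrp1 and Grhl2 were also higher at day 16 than in eXEN, by 3.17, 3.70 and 1.95, among 8 higher and 0 lower (53.3% higher, beside 14% of all genes); there were 4 without day 16 replicate 1 and 3 without eXEN replicate 2. Ovol2 (2.53) and Grhl2 (1.84) were among the 5 higher against CeXEN (33.3%, beside 9.11% of all genes), which were 2 without day 16 replicate 1 and 1, with 2 lower, without CeXEN replicate 1.

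CeXEN against eXEN had 3 regulators higher (20.0%, beside 4.01% of all genes), led by Elf3 (2.07), with 5 without CeXEN replicate 1 and 0 without CeXEN replicate 2 or eXEN replicate 2. Against MEF, eXEN had 5 higher and 0 lower (33.3% higher, beside 8.85% of all genes). Against ESC it had 2 higher, Hnf4a (2.49) and Esrp2 (1.19), and 3 lower, led by Tfap2c (-5.34), with 1 higher without eXEN replicate 2 or ESC replicate 1. These shares, 13.3% higher and 20.0% lower, were near the 9.78% and 18.4% of all genes. CiPSC against day 16 had 2 higher and 8 lower, led by Esrp2 (-2.56) among the lower and Tfap2c (4.59) among the higher, with 3 lower without day 16 replicate 1. The 13.3% higher were near the 13% of all genes, and the 53.3% lower stand beside 17%. In CiPSC against ESC, limma called 0 genes of each of the 3 lists, and likewise in the trend.

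**Figure D5:**
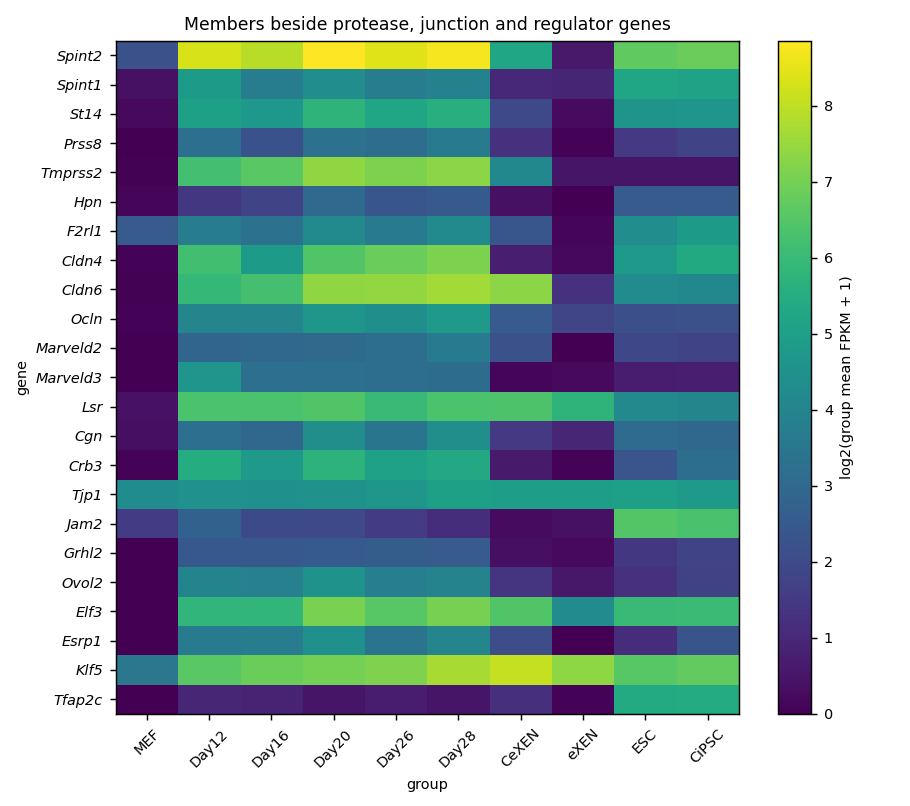
log2(group mean FPKM + 1), coloured from dark (0) to bright, of Spint1, Spint2, Cldn4, Cldn6 and Ocln beside genes of the 3 lists (rows, chosen for display after their values were seen) in the 10 groups (columns). St14 is at 25.3 FPKM at day 16 and 0.205 in eXEN, where Spint2 is also high and low, but in CeXEN St14 is at 2.89 and Spint2 at 36.0 FPKM, and Tjp1 lies between 17.3 and 35.3 FPKM in every library.

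As a description over the 21 libraries, which share groups, the genes nearest in pattern were found by Pearson correlation of log2(FPKM + 1) among 11090 genes. St14 was nearest to Spint2 (r = 0.961), followed by Sgsm1 (0.957) and Dedd2 (0.953). Cdh1, which encodes E-cadherin, was 1 of the 3 nearest to Spint1 (0.975), after Alpl (0.978) and before Amph (0.963). The tight junction plaque gene Cgn was 1 of the 3 nearest to Cldn4 (0.949), after Chga (0.965) and Rec8 (0.957). Cldn7 was nearest to Ap1m2 (0.953), a subunit of an epithelial sorting adaptor. Cblc (0.950) and Pkp3 (0.935), a desmosome protein, were the others of its 3 nearest. Cldn3 was nearest to Bspry (0.970), Plek2 (0.966) and Cdcp1 (0.952), and Cldn6 to Ppp1r9a (0.950), Nmb (0.948) and Arhgap8 (0.943). Ocln was nearest to Fam86 (0.946), Tusc2 (0.946) and Ndufs3 (0.944).

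Among the members, Cldn4 and Spint2 (0.910), Cldn7 and Spint2 (0.909) and Cldn3 and Cldn7 (0.903) were the most alike pairs. Spint1 was least like Cldn6 (0.319) and Ocln (0.386). The neighbours Cldn3 and Cldn4 had 0.826.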

How the data were processed

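RNA was sequenced in 21 libraries, from NEBNext Ultra libraries according to the labels. Each deposited file gives FPKM per gene, which the authors computed (TopHat and Cufflinks, build mm10, per the submitters' processing notes); versions, strand setting and read counts are not given in the sources used here, so depth is unknown and precision is given by the bounds of the quantifier. Loci sharing an identifier (40 identifiers) were summed. Values were analysed as log2(FPKM + 1) with limma 3.58.1 (R 4.3.3, intensity trend), over 16650 genes with FPKM of at least 1 in at least 2 of the 21 libraries. All libraries entered 1 fit, each group with its own coefficient, which left 11 residual degrees of freedom; the libraries of groups of 1 add none, and a lone library left by a leave-out was assumed to vary like the others. Adjusted p is Benjamini-Hochberg over all genes tested. The trend used 6 libraries (4 residual degrees of freedom). The fit was tested on simulated data. All 7 members are named in every comparison. From the 3 lists, some called genes with large changes are named in the other comparisons, and none in eXEN against MEF. Tjp1, St14, Prss8, Hgf, Met, Grhl2 and Ovol2 are always given for day 16 against MEF. One gene of the regulator list is not reported here and was left out of its counts. The members and lists were chosen with earlier results of these data known. Promoters are from RefSeq. Other tools were Python 3.11.15, numpy 2.4.6, pandas 2.3.3 and matplotlib 3.10.9.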

Additional observations from a re-analysis of the deposited data

How the results depend on the processing

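Of 854 refits of single members, 788 kept direction and side of the threshold, 37 lost the call, 6 gained it and 23 changed sign. Each change of sign concerned a difference that was not called in the main analysis, and beyond what is said here the cause was not tested. Without an intensity trend, with no filter on low values and with a filter at 5 FPKM, the counts of members called were those reported. With a pseudocount of 0.1, eXEN against MEF had 3 members called (Cldn6, Ocln and Spint2) and CiPSC against day 16 had 2, and median-of-ratios scaling gave 2 for eXEN against MEF. Fits of only the 2 groups compared, which have fewer libraries to set the spread, called 0 members in day 16 against MEF, 1 in day 16 against eXEN and 0 in day 16 against CeXEN and in CeXEN against eXEN. Of all genes they called 0 in the comparisons with 0 members, 480 higher and 53 lower in day 16 against eXEN, 294 higher and 596 lower in eXEN against MEF and 996 higher in eXEN against ESC.

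Quantile normalization moved the median of all genes in day 16 against MEF from 0.22 to -0.02, in day 16 against eXEN from 0.23 to -0.07 and in eXEN against ESC from -0.26 to 0.02. The share of calls that were higher went from 64.3% to 47.0%, from 81.5% to 53.2% and from 34.7% to 52.4% in these, from 80.7% to 57.6% in day 16 against CeXEN and from 62.0% to 49.8% in CeXEN against eXEN. It gave 1349 genes higher and 1189 lower in day 16 against eXEN and 827 and 610 in day 16 against CeXEN, and median-of-ratios scaling 873 and 572 lower. The called members kept direction and call under both scalings. Values that changed sign were Spint1 in CeXEN against eXEN (-0.23 with a pseudocount of 0.1, -0.25 with quantile normalization, -0.070 with median-of-ratios scaling), Cldn7 in eXEN against MEF (0.068) and Ocln in eXEN against ESC (0.13), both with quantile normalization.

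Leaving out each library in turn gave 2 to 4 members called in CiPSC against day 16 and 3 to 6 in day 16 against CeXEN, 5 to 6 in eXEN against ESC, and the reported count in the others. Signs changed in eXEN against MEF for Cldn7 (-0.31 to 0.20) and Spint1 (-0.051 to 0.95), and in CeXEN against eXEN for Cldn7 (-0.10 to 1.64) and Spint1 (-0.67 to 0.67). In CiPSC against day 16 Cldn4 ran from -0.38 to 2.95, Cldn7 from -1.84 to 0.31 and Spint2 from -1.67 to 0.087. In CiPSC against ESC Cldn3 ran from -0.13 to 0.58, Cldn6 from -0.76 to 0.57, Ocln from -0.16 to 0.20 and Spint1 from -0.54 to 0.26. In the trend Cldn3 ran from -1.65 to 0.50 and Spint1 from -0.78 to 0.032. Of all genes, 789 were lower in day 16 against MEF without day 16 replicate 1, and in day 16 against eXEN 343 were lower without day 16 replicate 1 and 1529 higher without eXEN replicate 2.

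As a share of the 4 member claudins alone, Cldn6 was 6.34% in MEF, 26.2% at day 12, 58.4% at day 16, 51.0% at day 20, 56.4% at day 26, 54.3% at day 28, 98.3% in CeXEN, 81.5% in eXEN, 32.4% in ESC and 22.9% in CiPSC. As a share of all claudins without the row listed as Cldn25, a choice made after seeing the data, it was 0.179% in MEF, 20.5% at day 12, 45.5% at day 16, 48.1% at day 20, 52.4% at day 26, 50.9% at day 28, 90.7% in CeXEN, 8.04% in eXEN, 26.8% in ESC and 19.4% in CiPSC.

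Deviations by replicate number were not alike between groups, with correlations between -0.116 and 0.0510 over 10 pairs of groups. The replicates differ in medium in eXEN and in strain in ESC, so pairs with these groups cannot show whether samples were paired. With a replicate block the members called were 7 in day 16 against MEF, 1 in eXEN against MEF, 7 in day 16 against eXEN, 6 in day 16 against CeXEN, 2 in CeXEN against eXEN, 6 in eXEN against ESC, 4 in CiPSC against day 16 and 0 in CiPSC against ESC. A crossed replicate block in day 16 against eXEN, chosen after seeing the data as were the 2 alternatives for the LOWDATA libraries in the trend, gave 7. Depth is unknown, so no limit of detection is given.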
